A study of Oryza sativa with 24 samples.

Results

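The tap mutant inflorescence at 3 mm was compared with that at 2 mm at high temperature in 6 of the 24 rice RNA-seq libraries of the study, chosen by their labels: 3 libraries of 3 mm tap inflorescences and 3 of 2 mm tap inflorescences. All groups are of the rice line that the labels call 9522. The mutant is named tap in the genotype field and ild in the sample titles, and the mutated locus and the degrees of the temperatures are not stated in the labels. The same lengths of wild type (WT) at high temperature, of tap at low temperature and of WT at low temperature, each with 3 libraries per length, served only to show where tap at high temperature differed. The labels do not tie a replicate to a plant or a pool of plants, and the p-values therefore reflect variation among these libraries, part of which may be technical.

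The rice inflorescence, or panicle, starts as a meristem that lays down branch meristems, and these form spikelet meristems in which the floral organs arise. Its length is widely used as a marker of developmental stage, since young panicles elongate while branches, spikelets and then floral organs are set up. The study title expands TAP as thermo-sensitive barren panicle and ties it to panicle growth in the heat. The comparison of lengths within tap asks which transcripts change as the mutant inflorescence grows under that condition. A library averages over the whole inflorescence, so fewer cells of a type and less RNA per cell cannot be told apart.

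No gene names accompany the identifiers in the count table, and 0 of the 26480 identifiers matched the RefSeq gene table for rice. Loci are therefore given by identifier without a role, the labelled tissue could not be checked against marker genes, and no sequences are shown. The 6 tap libraries held 19819257 to 21305381 counts, and 2215 to 2502 loci had 0 counts in each of them. Every locus in the table had at least 10 counts summed over the low-temperature libraries, so loci below that sum are missing from it, whatever their level at high temperature.

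The 6 libraries did not fall cleanly into 2 lengths. Over 15727 loci of at least 5 CPM (counts divided by the TMM-scaled library size and expressed at a common depth), the median absolute log2 difference between 3 mm replicates 1 and 3 was 0.115. Replicate 2 of 3 mm differed from replicate 1 by 0.254 and from replicate 3 by 0.211. Its differences from the 2 mm libraries were no larger, at 0.19 for replicate 1, 0.19 for replicate 2 and 0.184 for replicate 3. Among the 2 mm libraries the values ran from 0.137 to 0.214. On the first principal component, which held 33.4% of the variance, 3 mm replicate 2 lay among the 2 mm libraries, and on the second, with 23.5%, it was at -41.8, against -2.84 and -2.47 for the other 3 mm libraries and -1.5 to 32.6 for the 2 mm libraries. It also had the lowest TMM factor of the series, 0.905. Counts of calls and the changes of named loci are therefore given with and without this library.

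**Figure D1:**
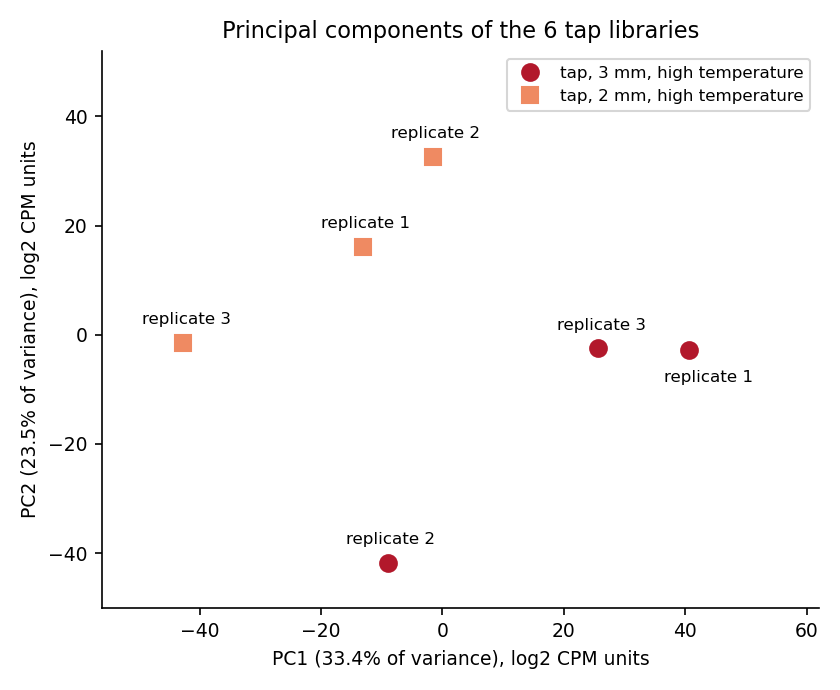
First and second principal component of log2 CPM in the 6 tap libraries at high temperature, with 3 mm libraries as circles and 2 mm libraries as squares. Replicates 1 and 3 of 3 mm lie to the right, at 40.6 and 25.7 on the first component, while replicate 2 of 3 mm lies at -8.96, among the 2 mm libraries at -1.55 to -42.7.

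Between 3 mm and 2 mm tap inflorescences at high temperature, 523 of 23658 tested loci were called (2.21%, edgeR quasi-likelihood test over all 24 libraries, Benjamini-Hochberg adjusted p under 0.05), of which 340 (1.44%) were higher and 183 (0.774%) lower at 3 mm. Most changes were small. The median log2 change was 0.47 among the higher and -0.69 among the lower loci, and 24 higher and 39 lower loci changed more than 2-fold. LOC_Os07g06620 and LOC_Os03g58600 rose most among loci that met the naming rule, and LOC_Os02g13800 and LOC_Os01g50680 fell most. No tested locus switched on or off by a strict count rule: 0 loci had at least 10 counts in each library of one length and at most 1 in each library of the other. Loci missing from the table could not be counted. The 3 mm libraries all lay above the 2 mm libraries at 2167 loci (9.16%) and all below them at 1689 (7.14%).

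The number of called loci depended strongly on the fit and on single libraries. With the 6 libraries alone 40 of 20763 loci were called (0.193%), 10 higher and 30 lower, and 28 of them were among the 523. With the 12 high-temperature libraries alone 85 were called, 28 higher and 57 lower. With the 12 tap libraries alone 471 were called, 169 higher and 302 lower, and 320 of them were among the 523. The common biological coefficient of variation, the spread between replicates beyond counting error, was 0.142 for the 6 tap libraries at high temperature, against 0.122 for WT at high temperature, 0.0706 for tap at low temperature and 0.107 for WT at low temperature. The median SE of the log2 change at loci of at least 5 CPM was 0.121 in the model over all libraries and 0.147 with the 6 libraries alone. Leaving out single libraries gave 181, 1185 and 101 called loci without 2 mm replicates 1, 2 and 3, and 77, 2298 and 151 without 3 mm replicates 1, 2 and 3. Without 3 mm replicate 2, 9.57% of the tested loci were called: 1098 loci (4.57%) were higher and 1200 (5%) lower, and 465 of the 523 loci were called again.

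The balance of higher and lower loci also moved. Higher loci made up 65% of the calls with TMM scaling, and with the scaling alone changed they made up 56.4% (RLE size factors) or 50.1% (upper-quartile factors). The share was 46.5% without a low-count filter, 54.9% in DESeq2, 35.9% with the 12 tap libraries alone, 32.9% with the 12 high-temperature libraries alone and 25% with the 6 libraries alone. The share of loci called increased with level, from 0.339% of loci under 1 CPM to 4.72% of loci of at least 100 CPM, while the median SE of the log2 change decreased from 0.63 to 0.098. In the model over all libraries, higher loci outnumbered lower ones only among abundant loci. They made up 73.3% of the calls at 20 to 100 CPM and 86.2% at 100 CPM and over. Under 1 CPM, at 1 to 5 CPM and at 5 to 20 CPM they made up 42.9%, 41.7% and 44.4%. By chromosome, read from the identifiers, between 1.6% (chromosome 9) and 2.68% (chromosome 3) of tested loci were called.

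**Figure D2:**
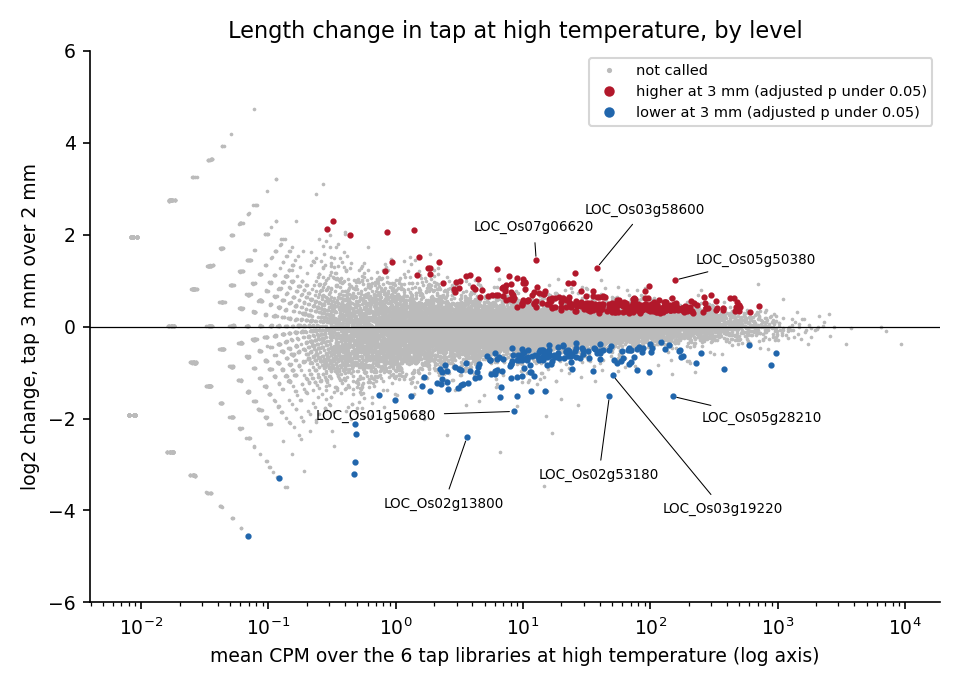
Log2 change between 3 mm and 2 mm tap inflorescences at high temperature against mean CPM of the 6 libraries (log axis), with 1 point per tested locus above 0 CPM. The 340 loci called higher are red and the 183 called lower are blue, and the 8 labelled loci, called in this comparison, are described in the text.

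**Figure D3:**
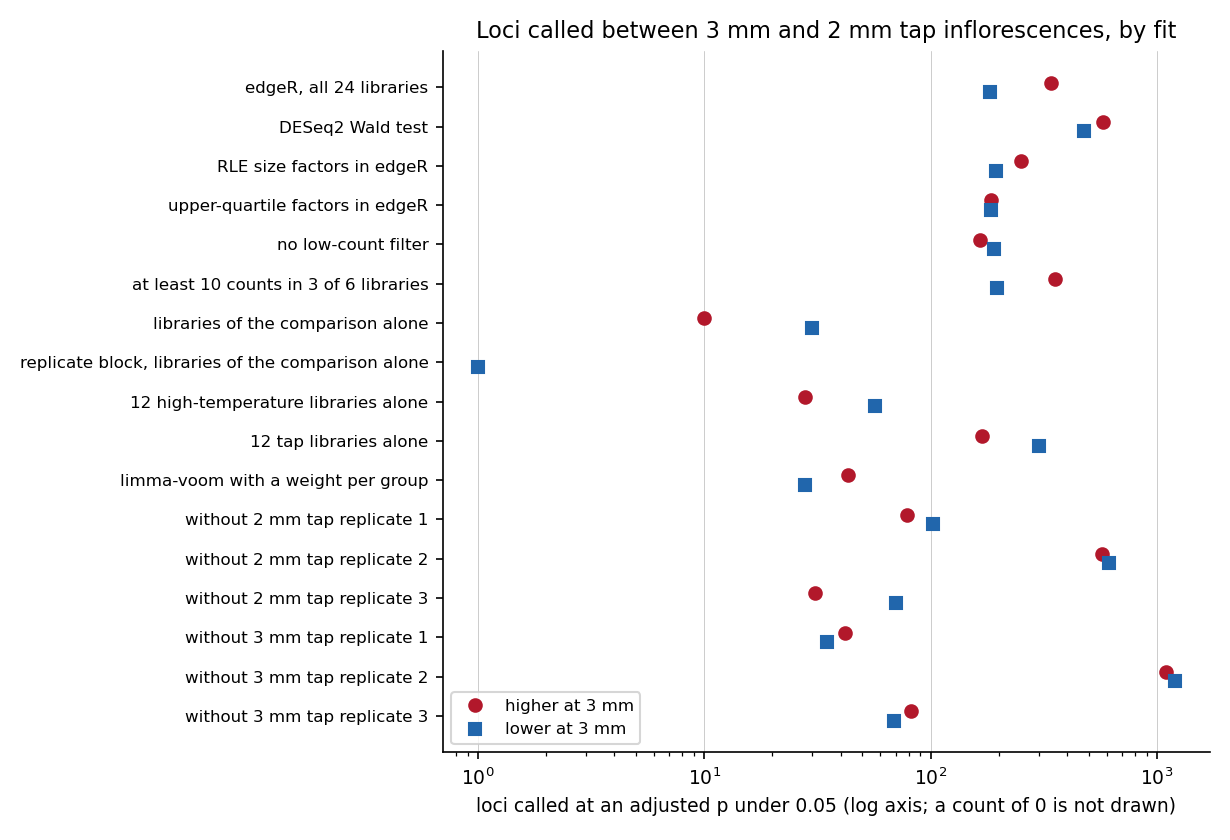
Number of loci called higher (circles) and lower (squares) at 3 mm than at 2 mm in tap at high temperature, for each fit (log axis). The total runs from 1 with a replicate block to 2298 without 3 mm tap replicate 2, and was 523 in the model over all 24 libraries.

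Among the 523 loci, 50 were called in the same direction with each of the 6 tap libraries left out in turn, 20 higher and 30 lower. Of these, 16 were also called with the 6 libraries alone, in DESeq2 and in limma-voom with a weight per group, 6 higher and 10 lower. Of the 7 loci named below for their length change in tap, LOC_Os03g58600, LOC_Os05g50380, LOC_Os02g13800 and LOC_Os03g19220 belong to these 16, as does LOC_Os02g53180, which is named for its difference between temperatures. With replicate number as a block in the 6 libraries alone, LOC_Os05g28210 was the only locus called. The other loci named for their length change in tap, and LOC_Os02g53180, lost their call there. The block leaves fewer residual degrees of freedom than the 6 libraries alone, or than the 16 of the model over all libraries. The log2 changes with the block were 1.46 for LOC_Os07g06620, 1.28 for LOC_Os03g58600 and 0.98 for LOC_Os05g50380. They were -2.47 for LOC_Os02g13800, -1.87 for LOC_Os01g50680, -1.07 for LOC_Os03g19220 and -1.52 for LOC_Os02g53180, so the estimates stayed close to those given below. Tested against a 1.5-fold change, LOC_Os02g53180 kept its call, while all 7 loci named for their length change in tap lost theirs.

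LOC_Os07g06620, on chromosome 7, was at 14.6, 22.1 and 18.8 CPM in the 3 mm tap libraries, against 4.38, 9.6 and 6.56 CPM in the 2 mm tap libraries. All 3 mm values lay above all 2 mm values. The log2 change was 1.44 ± 0.26 (SE, adjusted p = 0.0083, edgeR) and was 1.25 without 3 mm replicate 2. Besides the replicate block and the 1.5-fold test, the call was lost without 2 mm replicate 3 and in limma-voom with a weight per group. The call held with the 6 libraries alone (adjusted p = 0.048, edgeR). Every tap library was below every WT library of the high temperature, where WT had 237 ± 14.3 CPM at 3 mm and 84.2 ± 21.2 CPM at 2 mm (SD, n = 3 each, as for all group means given with ±), while the log2 change in WT was 1.49 ± 0.21. The change in tap minus that in WT was -0.06 ± 0.34 on the log2 scale (SE), which did not pass the test (adjusted p = 0.99, edgeR). At low temperature the locus was at 117 ± 17.9 CPM in 3 mm tap and 40.5 ± 10.6 CPM in 2 mm tap, a log2 change of 1.53 ± 0.22.

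LOC_Os03g58600, on chromosome 3, had 53.8, 55.7 and 51.4 CPM in 3 mm tap, against 21.4, 26.6 and 18.3 CPM in 2 mm tap. The lengths were well apart, with a gap wider than the range within either. Its log2 change of 1.28 ± 0.15 (adjusted p = 8.2e-05, edgeR) was 1.2 without 3 mm replicate 2 and 1.26 with the 6 libraries alone. In WT at high temperature it stood at 123 ± 12 CPM at 3 mm and 48.5 ± 3.78 CPM at 2 mm, a log2 change of 1.34 ± 0.15. It also rose at low temperature, with a log2 change of 1.45 ± 0.15 in tap and 1.15 ± 0.15 in WT. LOC_Os07g06620 and LOC_Os03g58600 were thus called higher at 3 mm in all 4 pairs of lengths, which share no libraries.

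LOC_Os05g50380, on chromosome 5, was the most abundant of the loci that rose more than 2-fold and met the naming rule. Its values were 255, 165 and 204 CPM in 3 mm tap, against 98.9, 114 and 97.7 CPM in 2 mm tap. The 3 mm libraries were spread more widely, with replicate 2 the lowest, and did not overlap with the 2 mm libraries. The log2 change was 1.01 ± 0.14 (adjusted p = 0.00019, edgeR) and 1.1 without 3 mm replicate 2. It was 0.82 without 3 mm replicate 1, and just under 2-fold with RLE size factors (0.99) and upper-quartile factors (0.98). In tap at low temperature it was also called higher at 3 mm, with a log2 change of 0.65 ± 0.14 (adjusted p = 0.011, edgeR). WT at high temperature had 113 ± 10.1 CPM at 3 mm and 91 ± 8.98 CPM at 2 mm, which did not pass the test (log2 change 0.31 ± 0.14, adjusted p = 0.19, edgeR). That tap changed more than WT was not shown, since the difference of 0.7 ± 0.19 missed the threshold (adjusted p = 0.063, edgeR).

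LOC_Os02g13800, on chromosome 2, was at 0.595, 0.994 and 1.86 CPM in 3 mm tap, with 12, 18 and 36 counts, against 6.31, 4.59 and 7.41 CPM in 2 mm tap, with 131, 87 and 139 counts. It was low in every 3 mm library and did not overlap with the 2 mm libraries. The log2 change was -2.41 ± 0.4 (adjusted p = 0.0043, edgeR), and -2.37 without 3 mm replicate 2. In WT at high temperature the locus also fell, to 2.35 ± 0.565 CPM at 3 mm, against 17.9 ± 4.78 CPM at 2 mm, a log2 change of -2.93 ± 0.34. In tap at low temperature it was at 14.4 ± 1.92 CPM at 3 mm and 35 ± 1.27 CPM at 2 mm, a log2 change of -1.28 ± 0.28. The change at high minus that at low temperature in tap, -1.13 ± 0.49, did not pass the test (adjusted p = 0.67, edgeR).

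LOC_Os01g50680, on chromosome 1, had 2.78, 4.42 and 3.83 CPM in 3 mm tap, against 12.4, 14.2 and 12.9 CPM in 2 mm tap. The lengths did not overlap. The fitted log2 change was -1.85 ± 0.4 (adjusted p = 0.027, edgeR) and -2.04 without 3 mm replicate 2. Besides the replicate block and the 1.5-fold test, the call was lost on leaving out 2 mm replicate 1 or 3 or 3 mm replicate 1 or 3. It was also lost in limma-voom with a weight per group, although it held with the 6 libraries alone (adjusted p = 0.0016, edgeR). WT at high temperature had 7.84 ± 4.3 CPM at 3 mm and 39.2 ± 4.68 CPM at 2 mm. It was also called lower at 3 mm at low temperature, with a log2 change of -1.8 ± 0.32 in tap and -1.72 ± 0.33 in WT.

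Of the loci that fell more than 2-fold and met the naming rule, the most abundant were LOC_Os05g28210 on chromosome 5 and LOC_Os03g19220 on chromosome 3. LOC_Os05g28210 was at 71.2, 87.3 and 74.4 CPM in 3 mm tap, against 207, 239 and 220 CPM in 2 mm tap. The 3 mm libraries were all far below the 2 mm libraries. Its log2 change of -1.52 ± 0.25 (adjusted p = 0.0067, edgeR) was -1.66 without 3 mm replicate 2, and the call was lost without 3 mm replicate 1 (adjusted p = 0.054, edgeR). WT at high temperature had 47.9 ± 14.1 CPM at 3 mm and 178 ± 72.5 CPM at 2 mm, a log2 change of -1.89 ± 0.26. LOC_Os03g19220 was at 28.9, 39.7 and 29.8 CPM in 3 mm tap, against 61.9, 60.9 and 82 CPM in 2 mm tap, with 3 mm replicate 2 the highest of its length. Its log2 change was -1.06 ± 0.16 (adjusted p = 0.0017, edgeR) and -1.27 without that library. In WT at high temperature the lengths overlapped for this locus, with 41.9 ± 9.99 CPM at 3 mm and 53.9 ± 6.71 CPM at 2 mm, and the difference between the genotypes in the length change, -0.69 ± 0.23, did not pass the test (adjusted p = 0.15, edgeR). The locus was also called lower at 3 mm at low temperature, with a log2 change of -0.82 ± 0.17 in tap (adjusted p = 0.011, edgeR) and -0.91 ± 0.17 in WT (adjusted p = 0.014, edgeR).

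**Figure D4:**
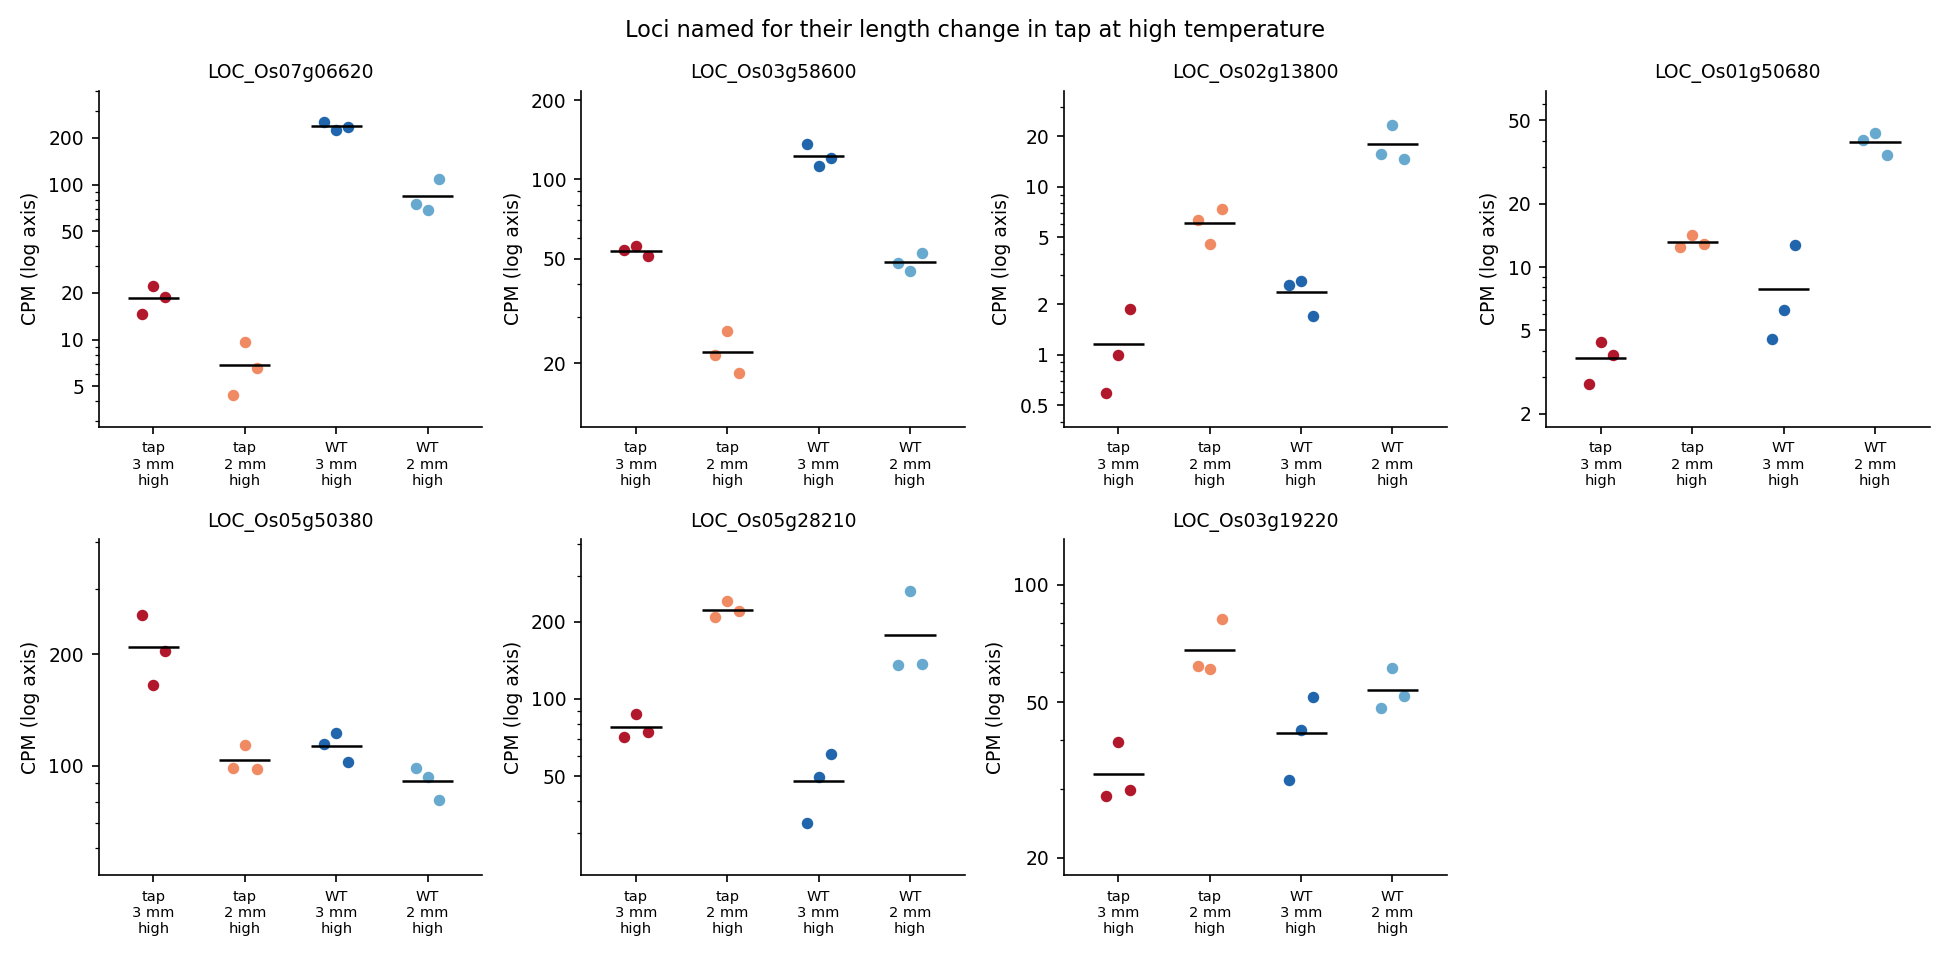
CPM (log axis) of the 7 loci named for their length change in tap at high temperature, in 3 mm and 2 mm inflorescences of tap and of WT, with 1 point per library and a bar at the mean of 3. In tap the 3 mm and 2 mm libraries do not overlap at any of the 7 loci, which the naming rule required, and LOC_Os07g06620 is at 18.5 CPM in 3 mm tap and 237 CPM in 3 mm WT.

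The other pairs of lengths share no libraries with the tap pair at high temperature, and loci called in tap mostly leaned the same way there. Of the 340 loci higher at 3 mm in tap at high temperature, 76.8% had a positive log2 change in WT at high temperature, 88.2% in tap at low temperature and 90.3% in WT at low temperature, where 50.6%, 48.6% and 52.2% of all tested loci did. Their median log2 changes in those pairs were smaller, at 0.18, 0.15 and 0.13. Of the 183 lower loci, 24.6%, 13.7% and 24% had a positive change there, with medians of -0.34, -0.2 and -0.16. A log2 change of one sign in all 4 pairs was found for 65% of the higher and 55.2% of the lower loci, against 29.3% and 25.6% of all tested loci that were positive or negative in tap at high temperature. Called in one direction in all 4 pairs were 8 higher and 9 lower loci, where WT at low temperature had 0.368% of loci called (0.22% higher, 0.148% lower) and 6.99% at an unadjusted p under 0.05. These are descriptions of loci that share libraries within each pair, and the medians of loci chosen for their change in tap are larger in tap by that choice.

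With WT at high temperature, where 1507 loci were called (6.37%, 2.65% higher and 3.72% lower) and 19.8% had an unadjusted p under 0.05, 52 higher and 65 lower loci were shared. These 117 loci were 22.4% of the loci called in tap and 7.76% of those called in WT, and 5 loci were called in opposite directions. Seen from WT, the 627 loci higher at 3 mm had a median log2 change of 0.15 in tap and 0.64 in WT, and the 880 lower loci had -0.13 in tap and -0.61 in WT. These loci were chosen by their call in WT, which makes the WT medians larger by that choice. With tap at low temperature, where 315 loci were called (1.33%, 0.558% higher and 0.774% lower) and 9.02% had an unadjusted p under 0.05, 28 higher and 33 lower loci were shared, 11.7% of the loci called at high and 19.4% of those called at low temperature, and 0 were called in opposite directions. Shared with WT were 15.3% of the higher and 35.5% of the lower loci called in tap. Without 3 mm tap replicate 2, 76 higher loci (6.92% of those called in tap) and 181 lower loci (15.1%) were shared, and 4 higher and 14 lower loci were called in the opposite direction in WT. In that fit 84.1% of the higher loci were positive and 71% of the lower loci were negative in WT. With the libraries of each comparison alone, 5.22% of loci were called in WT at high temperature and 5.34% in tap at low temperature.

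The length change of tap minus that of WT, both at high temperature, was tested directly. The difference was called at 301 loci (1.27%), positive at 176 (0.744%) and negative at 125 (0.528%), with 13% of loci at an unadjusted p under 0.05. In 253 of the 301 the log2 changes of the genotypes had opposite signs, which choosing loci by the difference favours in itself. Of the 301, 192 were called between lengths in WT alone, 57 in tap alone, 5 in opposite directions, 6 in the same direction and 41 in neither genotype. Of the 523 loci called in tap, 68 showed such a difference and 455 did not, which does not show that tap and WT changed alike at those 455. This count also moved with the fit: it was 48 with the 12 high-temperature libraries alone (0.224%) and 495 without 3 mm tap replicate 2 (2.06%). It was 111 without 2 mm tap replicate 1 and 622 without 2 mm tap replicate 2. Of the 301, 31 loci were called with each of the 12 libraries left out, with those libraries alone, in DESeq2 and in limma-voom with a weight per group.

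LOC_Os01g17396, on chromosome 1, fell in both genotypes, but less in tap. It had 2.33, 4.75 and 4.5 CPM in 3 mm tap, against 12.2, 7.33 and 9.12 CPM in 2 mm tap, while the WT libraries had 2.03, 2.81 and 1.45 CPM at 3 mm, against 30.7, 42.1 and 29.2 CPM at 2 mm. The log2 change was -1.32 ± 0.31 in tap (adjusted p = 0.03, edgeR) and -4.02 ± 0.32 in WT. The call in tap did not hold with every tap library left out in turn. The difference was 2.7 ± 0.45 (adjusted p = 0.0062, edgeR), or 2.49 without 3 mm tap replicate 2, and lost its call only against a 1.5-fold change. In low-temperature tap the lengths overlapped, at 41.7 ± 3.1 CPM for 3 mm and 42.1 ± 7.31 CPM for 2 mm. WT at low temperature was far lower, at 0.59 ± 0.38 CPM for 3 mm and 0.56 ± 0.41 CPM for 2 mm. The level of this locus thus differed widely with genotype and temperature.

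LOC_Os06g36560, on chromosome 6, fell in WT and had no called change in tap. It was at 1.49, 2.21 and 1.29 CPM in 3 mm tap, against 0.722, 1.16 and 0.693 CPM in 2 mm tap, and at 5.38, 3.8 and 4.39 CPM in 3 mm WT, against 14.6, 13 and 8.38 CPM in 2 mm WT. The log2 change was 0.95 ± 0.32 in tap (adjusted p = 0.097, edgeR) and -1.41 ± 0.23 in WT, with a difference of 2.35 ± 0.39 (adjusted p = 0.0021, edgeR). Without 3 mm tap replicate 2 the difference was 2.06. At high temperature the tap libraries were all below the WT libraries. They held 30, 40 and 25 counts at 3 mm and 15, 22 and 13 counts at 2 mm. This locus met the minimum of 5 CPM for naming only through 2 mm WT at high temperature, with a mean of 12 CPM. At low temperature the means were 1.73 CPM at 3 mm and 1.81 CPM at 2 mm in tap, against 1.21 and 1.11 CPM in WT.

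LOC_Os01g01340, on chromosome 1, rose in WT and showed no called change in tap. It was at 7.98, 8.78 and 7.35 CPM in 3 mm tap, against 9.82, 9.28 and 11.4 CPM in 2 mm tap. In WT it was at 46.3, 42.5 and 32.8 CPM at 3 mm, against 4.86, 9.2 and 10.4 CPM at 2 mm, so the 3 mm WT libraries were above all the others of the high temperature. The log2 change was -0.34 ± 0.23 in tap (adjusted p = 0.47, edgeR) and 2.31 ± 0.23 in WT, and the difference was -2.65 ± 0.32 (adjusted p = 0.00033, edgeR), or -2.76 without 3 mm tap replicate 2. LOC_Os01g17396, LOC_Os06g36560 and LOC_Os01g01340 belong to the 31 loci above.

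LOC_Os10g35070, on chromosome 10, rests on less. It had 6, 6 and 9 counts in 3 mm tap, against 27, 28 and 18 counts in 2 mm tap, or 0.298, 0.331 and 0.466 CPM against 1.3, 1.48 and 0.96 CPM. Replicate 1 of 3 mm WT had 9.34 CPM, where the other 3 mm WT libraries had 3.38 and 2.48 CPM, against 2.35, 3.27 and 2.83 CPM in 2 mm WT. The difference between the genotypes was -2.6 ± 0.6 (adjusted p = 0.025, edgeR), and -2.58 without 3 mm tap replicate 2. Neither length change passed the test alone, and without 3 mm WT replicate 1 the difference was -1.81 and no longer called (adjusted p = 0.068, edgeR). The call was also lost without tap 2 mm replicate 1, tap 3 mm replicate 1, tap 3 mm replicate 3 or WT 2 mm replicate 1, with the 12 high-temperature libraries alone (adjusted p = 0.12, edgeR) and in limma-voom with a weight per group (adjusted p = 0.26). A replicate block and the test against a 1.5-fold change lost it as well. The locus met the minimum of 5 CPM for naming only through 3 mm WT, whose mean of 5.07 CPM rests on replicate 1.

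A difference between the temperatures in the length change of tap was called at 1 of 23658 loci (0.00423%), with 1691 at an unadjusted p under 0.05 (7.15%) and with 17 loci called in DESeq2, 4 with the 12 tap libraries alone (0.0174%) and 11 without 3 mm high-temperature replicate 2 (0.0458%). The high- and low-temperature columns are named in different styles, and whether the sets were processed apart cannot be told apart from temperature.

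LOC_Os02g53180, on chromosome 2, was that locus. It had 22.3, 25.2 and 26.8 CPM in 3 mm tap at high temperature, against 64.1, 83.4 and 64 CPM in 2 mm tap. Every 3 mm library was far below every 2 mm library. At low temperature the lengths overlapped in tap, with 98.4, 96.6 and 101 CPM at 3 mm, against 96.9, 104 and 102 CPM at 2 mm. The log2 change in tap was -1.51 ± 0.13 at high temperature (adjusted p = 6.2e-08, edgeR), or -1.57 without 3 mm replicate 2, and -0.03 ± 0.12 at low temperature. The difference of -1.48 ± 0.18 (adjusted p = 0.00011, edgeR) was called in all 21 other fits, with values of -1.57 to -1.37. Without 3 mm high-temperature replicate 2 it was -1.54. WT also fell at high temperature, with 213 ± 11.3 CPM at 3 mm and 342 ± 29.3 CPM at 2 mm, a log2 change of -0.68 ± 0.12. At low temperature WT had 134 ± 24.3 CPM at 3 mm and 129 ± 25 CPM at 2 mm, a log2 change of 0.06 ± 0.12. A fall at high but not at low temperature was thus seen in WT too, where the difference between temperatures was not tested. At high temperature the change in tap minus that in WT was -0.83 ± 0.18 (adjusted p = 0.018, edgeR), or -0.88 without 3 mm tap replicate 2, so the fall was larger in tap. That call held without each of the 12 libraries, and was lost with the 12 high-temperature libraries alone (adjusted p = 0.05) and in limma-voom with a weight per group (adjusted p = 0.065). It was also lost against a 1.5-fold change. The levels of this locus at high temperature were in the order 3 mm tap, 2 mm tap, 3 mm WT and 2 mm WT from low to high, with no overlap between neighbours.

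**Figure D5:**
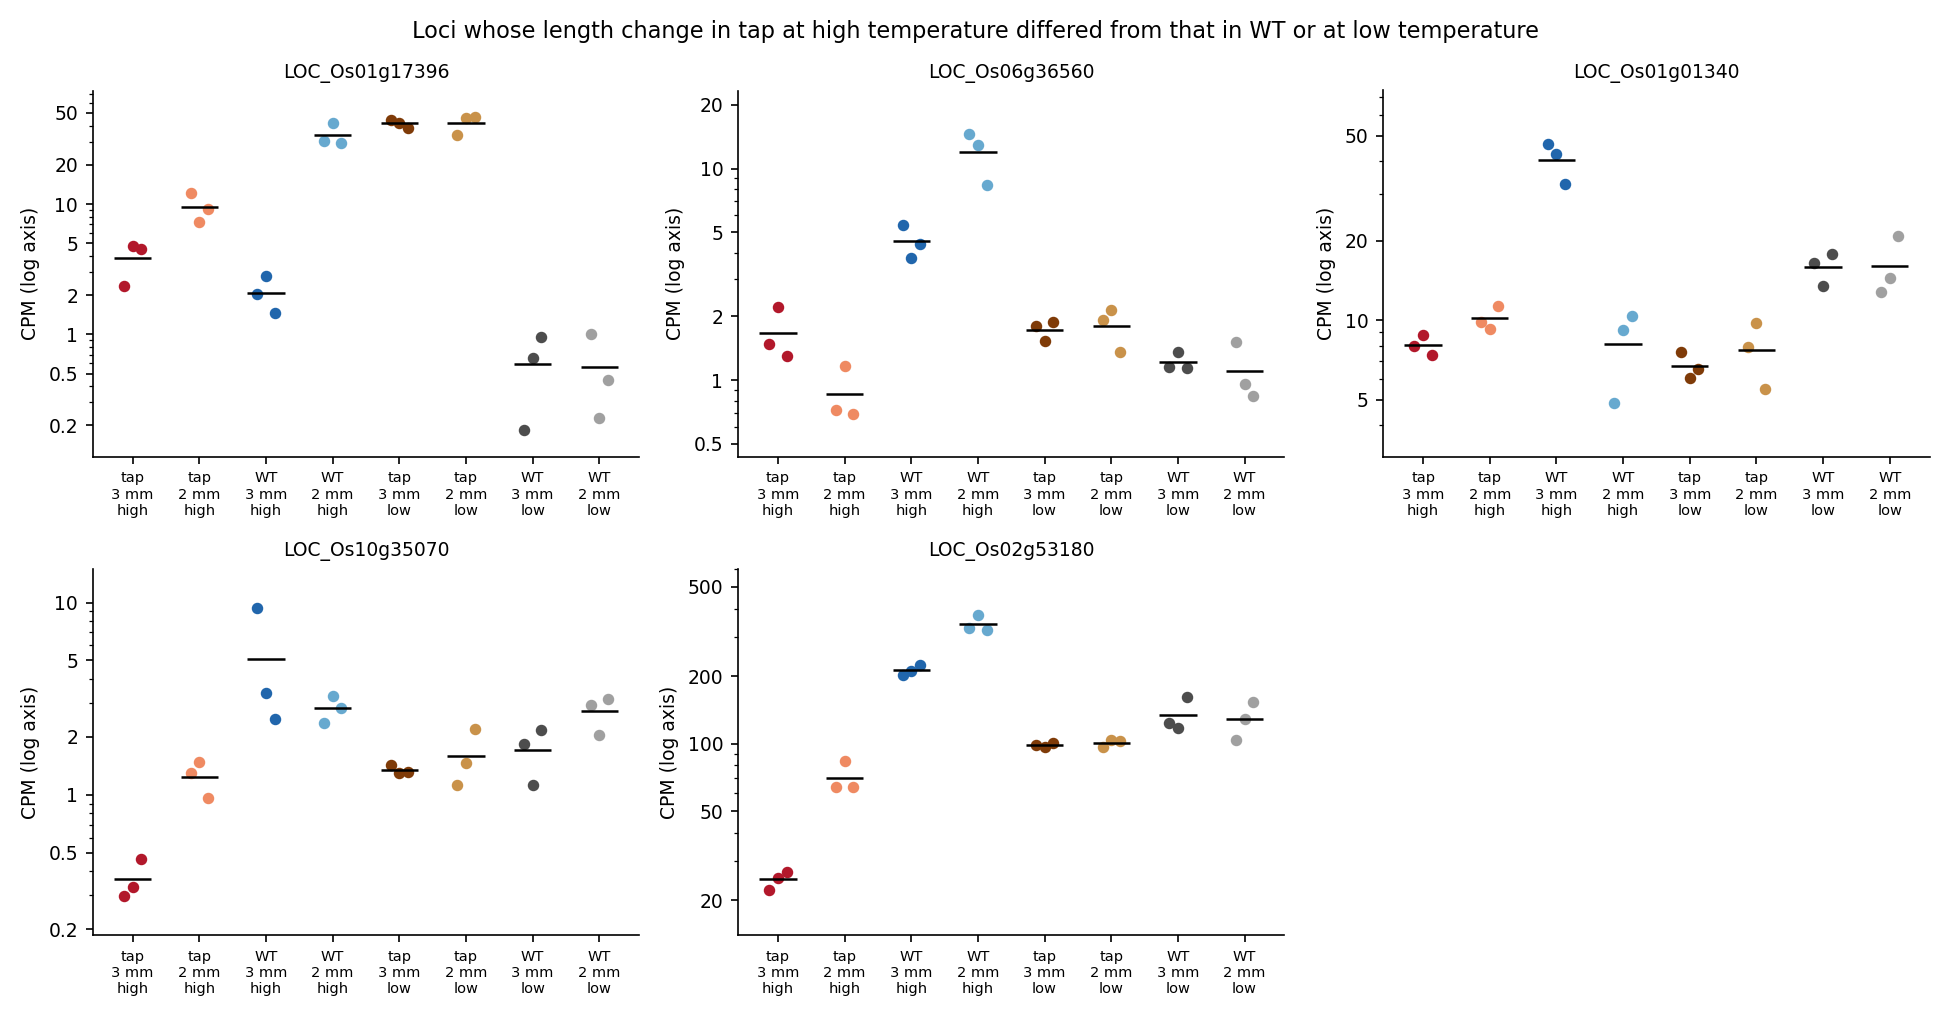
CPM (log axis) of the 5 loci whose length change in tap at high temperature differed from that in WT or from that at low temperature, in all 8 groups, with 1 point per library and a bar at the mean of 3. LOC_Os02g53180 is at 24.8 CPM in 3 mm tap and 70.5 CPM in 2 mm tap at high temperature, and at 98.5 and 101 CPM in 3 mm and 2 mm tap at low temperature.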

How the data were processed

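The authors deposited 1 table of unnormalized counts, with a row per locus. Per the submitters' processing notes, Trimmomatic, HISAT2, HTSeq and the genome build IRGSP-1.0 were used; their versions, the annotation and the strand setting are not stated there, so reads of overlapping or antisense loci may be mixed. High-temperature columns named iHT were read as tap, since the others are named WT. Left out were 70 loci without high-temperature values, at most 0.22% of a low-temperature library, leaving 26410.

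Counts of all 24 libraries (19819257 to 21305381 each) were fitted with a mean per group in edgeR 4.0.16 (limma 3.58.1, R 4.3.3): TMM scaling, default filterByExpr, robust quasi-likelihood F tests, 16 residual degrees of freedom, Benjamini-Hochberg adjustment per contrast. The model was also run on simulated counts, drawn with the same spread in every group and with no outlying library. That simulation could therefore not show how unequal spread or a single library affects the calls. DESeq2 1.42.0 and other fits were alternatives. For principal components, CPM were put on a log2 scale after adding a prior count of 2.

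Named loci had an adjusted p under 0.05, at least 5 CPM in a compared group and no overlap between the tap lengths at high temperature. Per direction, the 2 largest changes were taken for tap, for tap and WT together and for each difference, and the 2 highest levels among changes above 2-fold. For tap and WT together, loci also had to be called in the same direction in WT, without overlap between its lengths. They were ranked by the smaller change, and were the same loci as for tap alone. Gene lists prepared by symbol could not be matched and were not tested. Members and lists were chosen with earlier results of these data known.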

Additional observations from a re-analysis of the deposited data

Results flagged for a closer look

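Loci are listed here because the difference between their length changes in 2 groups passed the test of the difference itself (edgeR, adjusted p under 0.05). Between tap and WT at high temperature, the log2 length change of tap minus that of WT was 2.7 for LOC_Os01g17396, 2.35 for LOC_Os06g36560, -2.65 for LOC_Os01g01340, -2.6 for LOC_Os10g35070 and -0.83 for LOC_Os02g53180. Between high and low temperature in tap, the log2 length change at high minus that at low temperature was -1.48 for LOC_Os02g53180. Groups held 3 libraries, so single libraries far from their group were not tested for.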

How the results depend on the processing

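The calls between lengths in tap at high temperature numbered 523 in the model of all libraries, 1055 in DESeq2, 471 with the 12 tap libraries, 85 with the 12 high-temperature libraries, 71 with a weight per group in limma-voom (chosen after seeing the data), 40 with the 6 libraries alone, 2 against a 1.5-fold change, and 77 to 2298 with single libraries left out. The difference between tap and WT gave 600 in DESeq2, 48 with its 12 libraries alone, 82 with group weights, 7 against a 1.5-fold change, and 111 to 622. The difference between temperatures in tap gave 17 in DESeq2, 2 each with RLE factors, upper-quartile factors and no filter, 4 with its libraries alone, 3 with group weights, and 1 to 11. WT at high temperature gave 123 against a 1.5-fold change and 755 (without 2 mm replicate 2) to 1762, with 826 without 3 mm replicate 2. Tap at low temperature gave 1189 with its 6 libraries alone, 859 with group weights, 15 against a 1.5-fold change, and 106 to 215. For the 18 changes followed at named loci, 0 of 322 refits reversed the direction and 36 lost the call, 10 of them against a 1.5-fold change; the cause was not tested. No label links the replicate numbers. Between the tap lengths at high temperature, deviations from the group means correlated across loci at 0.29, -0.22 and -0.22 for same-numbered libraries. For differently numbered ones the values ran from -0.43 to 0.45. Whether the numbers pair the tap lengths was not tested. Between tap and WT at high temperature, same-numbered libraries correlated at 0.28, 0.27 and 0.02 for 2 mm and at 0.25, 0.22 and -0.11 for 3 mm. Differently numbered ones ran from -0.3 to 0.12 for 2 mm and from -0.38 to 0.36 for 3 mm. Whether the numbers link the genotypes was not tested. With replicate number as a block the counts were 1 for tap at high temperature and 993 for tap at low temperature. They were 52 and 7 for the differences between genotypes and temperatures. The block leaves fewer residual degrees of freedom than the same libraries without it. Depth limits low loci: under 1 CPM the median SE of the log2 change was 0.63, against 0.098 at 100 CPM and over.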
